A study of Mus musculus with 6 samples.

Results

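The hedgehog receptors, coreceptors, Gli factors and feedback targets are described here as 9 genes, Gli1, Gli2, Gli3, Ptch1, Hhip, Smo, Sufu, Boc and Cdon. They were chosen by gene symbol from the 22851 genes of the deposited count table, with earlier results of the same knockout comparison known. All 9 were in the table and all 9 passed the filter on low counts, Hhip only through the knockout libraries. Their knockout values are therefore given as a description, with no test.

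RNA came from primary radial glial cells of the brains of C57BL/6J mice aged P0 to P3, the progenitors that line the ventricles. The cells were grown with 10% serum and then kept without serum for 6 days, which turns them into multiciliated ependymal cells. The groups are wild type (WT) and Edf1 KO, from mice whose Edf1 gene was disrupted with CRISPR/Cas9, with 3 libraries each. Per the study's design text these are biological replicates. The labels name neither the allele nor the sex or number of animals behind a library. The question was which genes depend on Edf1, which encodes a transcriptional coactivator and ribosome-associated factor, during ependymal differentiation.

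Hedgehog ligands such as Sonic hedgehog bind the receptor Patched1, which otherwise keeps the transducer Smoothened inactive, and Boc and Cdon are coreceptors that help the ligand bind. Active Smoothened collects in the primary cilium and frees the Gli transcription factors from Sufu. Gli2 is known mainly as an activator and Gli3 mainly as a repressor, and Gli1 is itself a target gene that adds to the response. Ptch1 and Hhip are targets that encode ligand-binding proteins and so feed back on the pathway. In the postnatal forebrain the pathway is known for its activity in ventral neural stem cells of the ventricular wall.

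Total counts were 13071766 to 28087006 per library, lowest in WT replicate 2. Edf1 had 82.6, 85.9 and 80.2 CPM (the usual count relative to the total of its library, here after TMM scaling) in WT replicates 1, 2 and 3 and 9.84, 10.9 and 13.2 CPM in Edf1 KO. Its log2 ratio of knockout to WT, as fitted by edgeR, was -2.85 (SE 0.091, adjusted p 5.46e-09 in edgeR's quasi-likelihood test), in the direction of the labels in all 6 libraries. Over the whole table, 3833 of 14243 tested genes passed an adjusted p of 0.05, which is 26.9%. Of all tested genes 12.7% were called higher and 14.2% lower in the knockout. All 15 multiciliated cell markers in the table, Foxj1 and Deup1 among them, were expressed in both genotypes, and all 15 were called lower in the knockout. In such bulk libraries, fewer cells of a type and less RNA per cell cannot be told apart.

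In outline, the 3 members known as transcriptional targets of the pathway, Gli1, Hhip and Ptch1, had the highest knockout to WT ratios of the 9. Gli1 was at 3.22 times, Hhip at 4.09 times and Ptch1 at 1.596 times the WT level. The transducer Smo and the coreceptors Boc and Cdon lay within 0.20 of 0 on the log2 scale. In edgeR's fit over all genes, 4 of the 9 members were past the threshold used for all genes, beside 26.9% of all tested genes. Nothing is read from that count, since the members were proposed with this comparison known and Hhip entered the fit through the knockout libraries alone. Across the alternatives it was 3 to 5. Summed markers of meningeal fibroblasts were also higher, at 94.3 to 113 CPM in WT libraries and 173 to 213 CPM in Edf1 KO libraries. Summed mural and endothelial, pituitary, and radial glia and astrocyte markers were higher too, and summed microglia and multiciliated cell markers lower. The mural and endothelial, pituitary, and radial glia and astrocyte lists also each held genes called lower. The part of these cell types in the levels of the members was not tested.

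The stretches just before the start sites of Ptch1 and Hhip are printed because both genes encode feedback proteins and both had higher values in the knockout. They are RefSeq sequences of GRCm38.p6, each 250 bases ending just before the annotated start, on the minus strand and read 5′ to 3′. Capitals mark GC boxes, GGGCGG on either strand, a general promoter element. The Ptch1 stretch lies at chr13:63565736-63565985, inside the longest annotated gene model, and has 1 GC box. The Hhip stretch lies at chr8:80058009-80058258, before the gene, and has 2.
Ptch1: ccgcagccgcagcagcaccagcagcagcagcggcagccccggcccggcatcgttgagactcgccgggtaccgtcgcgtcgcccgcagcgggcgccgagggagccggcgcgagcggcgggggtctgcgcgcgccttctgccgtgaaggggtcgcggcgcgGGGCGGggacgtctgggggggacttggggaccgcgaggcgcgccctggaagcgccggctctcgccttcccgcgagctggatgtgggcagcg
Hhip: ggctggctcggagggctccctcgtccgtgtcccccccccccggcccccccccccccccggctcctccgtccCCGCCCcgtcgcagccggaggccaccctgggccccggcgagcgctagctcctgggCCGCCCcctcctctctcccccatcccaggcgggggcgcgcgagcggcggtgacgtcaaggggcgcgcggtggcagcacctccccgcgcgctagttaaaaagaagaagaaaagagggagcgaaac

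The promoter table had entries for 7 of the 9 members, without Gli1 and Boc. In windows from 250 bases before to 50 after the start, the Gli consensus GACCACCCA was searched on both strands. It had 0 matches in the 7 member windows, and 0 with up to 1 mismatch. Of all 32851 windows in the table, 0.253% held an exact match and 6.74% a match with up to 1 mismatch. GC boxes were in 5 of the 7 member windows and in 35.7% of all windows. The absence of these letters from such a window says nothing on binding elsewhere.

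Gli1 lies on chr10:127329882-127341974 (GRCm38, minus strand, GENCODE M21). It had 9.64, 9.87 and 11.3 CPM in WT replicates 1, 2 and 3, and 32.0, 31.8 and 35.2 CPM in Edf1 KO. The lowest knockout library was well above the highest WT library. The means were 10.3 ± 0.90 and 33.0 ± 1.87 CPM (SD, n = 3 each), a log2 ratio of 1.69 (SE 0.091). By size of rise Gli1 was at rank 49 of the 14243 tested genes. Its exons overlap those of Arhgap9 on the opposite strand over 62 bases, and those of Gm47200, which was not analysed here, over 265. The sources used here do not state whether reads were counted by strand. Arhgap9 itself had 11.1 ± 0.49 CPM in WT and 13.3 ± 1.34 CPM in Edf1 KO (log2 ratio 0.27, adjusted p 0.0741 in edgeR's test).

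Hhip, on chr8:79965851-80058006, encodes a membrane protein that binds hedgehog ligands and withholds them from the receptor. It was the rarest member, with 6, 4 and 4 counts in the WT libraries, and 17, 18 and 28 in those of the knockout. On the scaled libraries these were 0.226, 0.311 and 0.216 CPM in WT and 1.045, 1.003 and 0.991 CPM in Edf1 KO. The groups did not overlap, and the 3 knockout libraries lay close together. The log2 ratio was 2.03 (SE 0.38). These levels rest on 14 counts in all 3 WT libraries together and 63 in the 3 knockout libraries.

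Ptch1, on chr13:63508328-63573598, encodes the main hedgehog receptor. It had 213.6, 161.5 and 220.1 CPM in WT replicates 1, 2 and 3, and 324.9, 320.7 and 307.3 CPM in Edf1 KO. Every knockout library was above every WT library, and the WT libraries were the more spread. The means were 198 ± 32.1 and 318 ± 9.22 CPM (SD, n = 3 each), a log2 ratio of 0.67 (SE 0.090). WT replicate 2 was the lowest WT library for Ptch1. Without it the log2 ratio was 0.55 (SE 0.037).

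**Figure D1:**
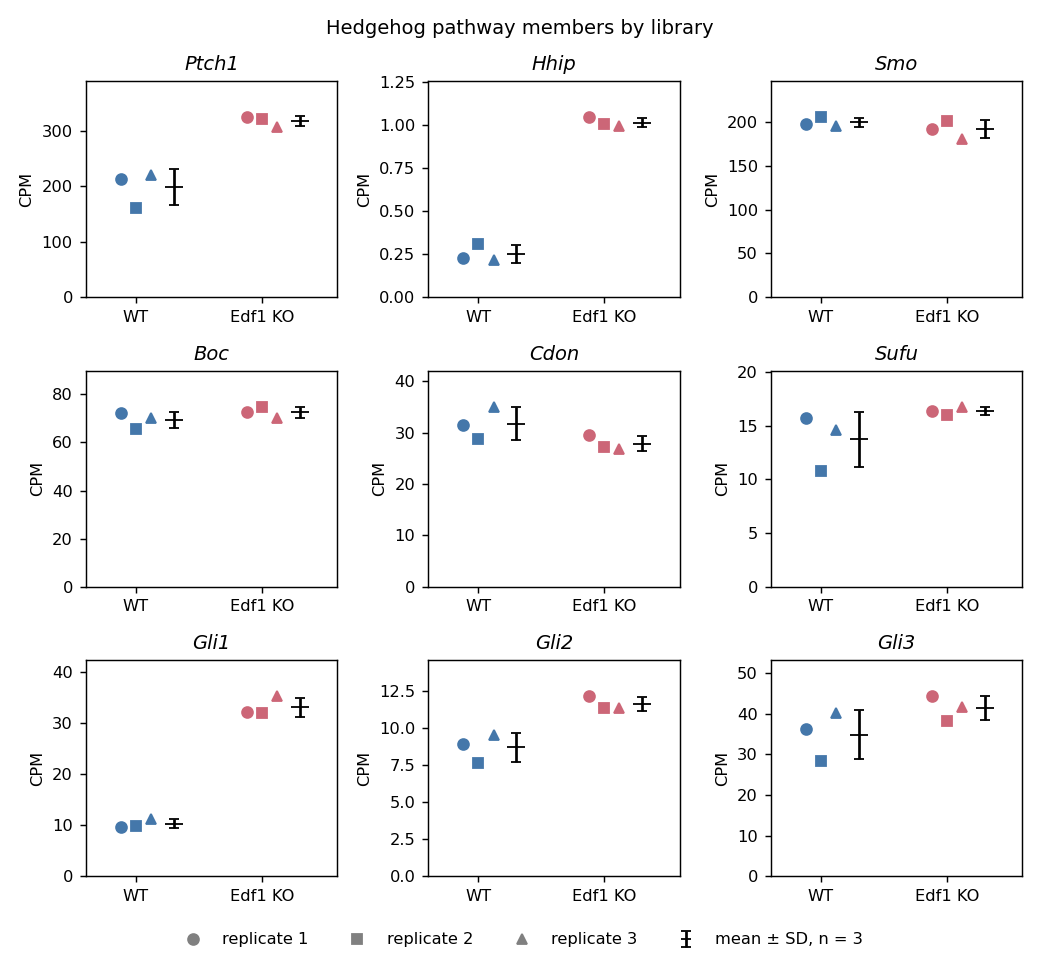
Levels of the 9 members in CPM, with 1 point per library (circle, square and triangle are replicates 1, 2 and 3; blue is WT, red is Edf1 KO) and the mean ± SD (n = 3) in black; each axis starts at 0. Gli1, Hhip, Ptch1, Gli2 and Sufu do not overlap between the genotypes, and WT replicate 2 is the lowest WT library for Ptch1, Sufu, Gli2, Gli3, Boc and Cdon.

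Smo, the transducer that Patched1 holds inactive, had 197.1, 205.5 and 195.5 CPM in WT and 192.4, 201.3 and 180.9 CPM in Edf1 KO. The groups overlapped. The log2 ratio was -0.058 (SE 0.053), the smallest difference in size among the members. Smo was also the member with the lowest spread among WT libraries, with a coefficient of variation of 2.70%.

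The coreceptor Boc had 72.1, 65.7 and 70.0 CPM in WT and 72.5, 74.9 and 70.3 CPM in Edf1 KO, with overlapping groups and a log2 ratio of 0.063 (SE 0.058). The coreceptor Cdon had 31.4, 28.8 and 35.0 CPM in WT and 29.5, 27.1 and 26.8 CPM in Edf1 KO. Its groups overlapped through WT replicate 2 and knockout replicate 1, and its log2 ratio of -0.20 (SE 0.084) was the lowest of the members. The 2 related coreceptor genes thus had values on opposite sides of 0, each small.

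Sufu, which encodes the protein that holds Gli factors in the cytoplasm, had 15.7, 10.8 and 14.6 CPM in WT and 16.4, 16.0 and 16.8 CPM in Edf1 KO. The groups did not overlap, by a margin of less than 1 CPM. The log2 ratio was 0.23 (SE 0.12). It was 0.11 (SE 0.089) without WT replicate 2, the WT library with the lowest value.

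Gli2 had 8.89, 7.61 and 9.51 CPM in WT and 12.1, 11.3 and 11.3 CPM in Edf1 KO, with no overlap. Its log2 ratio was 0.40 (SE 0.11), and 0.33 (SE 0.11) without WT replicate 2. Gli3 had 36.1, 28.3 and 40.2 CPM in WT and 44.3, 38.3 and 41.6 CPM in Edf1 KO. Knockout replicate 2 lay below WT replicate 3, so the groups overlapped. The log2 ratio of Gli3 was 0.23 (SE 0.11), and 0.12 (SE 0.071) without WT replicate 2. The 3 Gli genes therefore differed in size, with Gli1 far above the other two.

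In all, 5 of the 9 members, Gli1, Hhip, Ptch1, Gli2 and Sufu, had groups that did not overlap, all higher in the knockout. Of all tested genes, 43.3% had groups that did not overlap, 21.3% with the knockout higher. The median log2 ratio of the 9 members was 0.23, and that of all tested genes was 0.0029. Nothing is read from this count or this median, since the members were proposed with the comparison known. Hhip also passed the low-count filter only through the knockout libraries.

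Levels were compared between genes as CPM per kilobase of the longest coding transcript in GENCODE M21, which need not be the transcript these cells use. In WT the order from the top was Smo (52.8 CPM per kilobase), Ptch1 (25.7), Boc (15.6), Gli3 (4.27), Cdon (4.23), Sufu (3.04), Gli1 (2.53), Gli2 (1.31) and Hhip (0.028). Gli3 and Cdon overlapped in their WT libraries, as did Sufu and Gli1, and the other neighbours in this order did not. In the knockout the order was Smo (50.7), Ptch1 (41.1), Boc (16.3), Gli1 (8.13), Gli3 (5.06), Cdon (3.71), Sufu (3.63), Gli2 (1.75) and Hhip (0.112). There Cdon and Sufu were the only neighbours whose libraries overlapped. Gli1 moved from the seventh place to the fourth, above Gli3, Cdon and Sufu.

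Within each library, Gli1 made up 29.2%, 34.5% and 30.5% of the summed Gli1, Gli2 and Gli3 level per kilobase in WT replicates 1, 2 and 3. It made up 52.2%, 55.1% and 56.1% in the knockout. The knockout shares were all above the WT shares. The mean share of Gli1 was 31.4% ± 2.79 in WT and 54.4% ± 2.03 in the knockout (SD, n = 3 each), while that of Gli3 was 52.4% ± 2.86 and 33.9% ± 1.66. Gli3 was thus the most abundant Gli transcript per kilobase in every WT library and Gli1 in every knockout library.

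The ratio of Ptch1 to Smo, both per kilobase, was 0.530, 0.385 and 0.551 in WT libraries, against 0.826, 0.779 and 0.831 in those of the knockout. The receptor transcript was below that of the transducer in all 6 libraries. The lowest knockout ratio was above the highest WT ratio, with means of 0.488 ± 0.091 and 0.812 ± 0.028 (SD, n = 3 each).

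**Figure D2:**
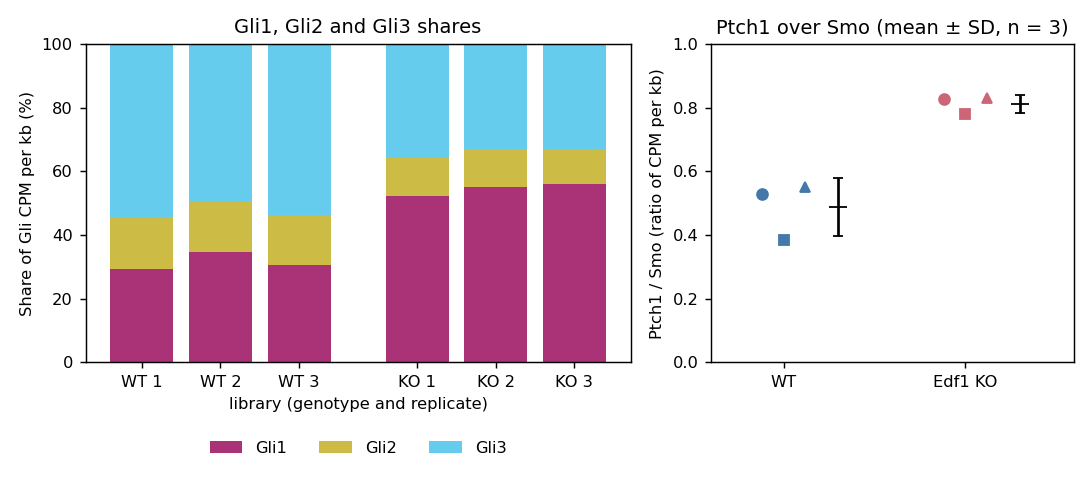
Left, shares of Gli1, Gli2 and Gli3 in their summed CPM per kilobase for each library, in percent. Right, the ratio of Ptch1 to Smo (CPM per kilobase) by library, with circle, square and triangle for replicates 1, 2 and 3 and the mean ± SD (n = 3) in black. Gli1 takes 29.2% to 34.5% in WT and 52.2% to 56.1% in the knockout, and the ratio is 0.385 to 0.551 in WT and 0.779 to 0.831 in the knockout.

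The other genes of the pathway were taken from 4 lists arranged by role, written from general knowledge with earlier results of the comparison known. They are not members and are given with their tests. Of 49 tested genes, 15 were called higher and 5 lower in the knockout by edgeR's quasi-likelihood test at an adjusted p of 0.05. That is 30.6% higher and 10.2% lower, beside 12.7% and 14.2% of all tested genes. Ligand and release genes, other receptors and other targets contributed 12 of the 15 higher calls and 0 of the 5 lower calls. Nothing is read from these counts and shares, here or by role below, since the lists were written with the comparison known. The higher calls include Scube2, which entered the fit through the knockout libraries alone. Of the 20 calls, 11 held under every alternative that kept this threshold. A further call, that of Dhh, held wherever the gene was tested, and the filter on a mean of 50 counts removed it.

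Among ligands and the genes for their processing and release, 5 of 8 tested genes were called higher and 0 lower, with a median log2 ratio of 0.41. The 5 and the median include Scube2, which was tested only through its knockout libraries. Shh encodes Sonic hedgehog, the main ligand of the nervous system. It had 32.3, 32.6 and 34.4 CPM in WT and 49.1, 49.97 and 47.5 CPM in Edf1 KO, with no overlap. It rose by a log2 ratio of 0.56 (SE 0.063, adjusted p 3.64e-05 by edgeR), or 1.48-fold. Dhh encodes Desert hedgehog, known from Schwann cells and testis. It rose from 0.829, 0.777 and 0.703 CPM to 1.78, 3.12 and 2.05 CPM, a log2 ratio of 1.57 (SE 0.30, adjusted p 0.00201 by edgeR). Knockout replicate 2 had the highest Dhh level. The third ligand gene, Ihh, had 2 to 5 counts in every library and was not tested.

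The ligand genes Shh and Dhh share sequence and exons with other genes. Of the 31-base words in the longest transcript of Shh, 25.5% also occur in other annotated genes, and for Dhh the share is 24.7%. Words were compared on both strands, so those in stretches where exons of another gene overlap are counted in these shares. Exons of Dhh overlap those of Rhebl1, on the same strand, over 546 bases, and those of Gm49442, on the opposite strand, over 1107. Rhebl1 had 2.96 ± 0.27 CPM in WT and 4.28 ± 0.31 CPM in Edf1 KO, a log2 ratio of 0.54 (SE 0.17, adjusted p 0.0351 by edgeR). On the opposite strand, exons of Shh, Nkx2-2, Ccnd2, Kif7 and Inpp5e overlap those of other genes, as do those of the members Gli3 (188 bases) and Hhip (175 bases). How reads in such stretches were assigned is not given in the sources used here.

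Scube2, whose product helps release the ligand, had 0.779 ± 0.36 CPM in WT and 1.63 ± 0.45 CPM in Edf1 KO (log2 ratio 1.05, SE 0.36, adjusted p 0.0467 by edgeR). It passed the low-count filter through the knockout libraries alone. Its call was lost by DESeq2, with the replicate block, and in every fit that left out a library except WT replicate 3, with adjusted p up to 0.199. Since Scube2 was tested only through the knockout libraries, its call is no support for a difference. The release genes Disp1 and Disp2, named here after their values were seen, were called at log2 ratios of 0.36 and 0.47. The Disp1 call was lost without knockout replicate 1 (0.36) or 2 (0.33), and the Disp2 call without WT replicate 1 (0.46) or 2 (0.38) or knockout replicate 1 (0.42) or 2 (0.43).

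Among other receptors and coreceptors, Lrp2, named after its values were seen, encodes megalin, an endocytic receptor that binds Sonic hedgehog in the forebrain. It had 334.0, 276.1 and 371.7 CPM in WT and 489.1, 470.3 and 473.9 CPM in Edf1 KO. The groups did not overlap, and Lrp2 rose by a log2 ratio of 0.54 (SE 0.082, adjusted p 0.000359 by edgeR). The coreceptor gene Gas1 had a log2 ratio of 0.025 and Gpc3, for a glypican that competes for the ligand, one of -0.13, and neither was called.

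Of 12 tested target genes, 5 were called higher and 0 lower, with a median log2 ratio of 0.46. Ccnd1, which encodes cyclin D1, rose from 80.4 ± 8.80 to 136.1 ± 9.75 CPM, a log2 ratio of 0.75 (SE 0.080, adjusted p 2.38e-05 by edgeR). Ccnd2, for cyclin D2, rose from 112.7 ± 19.0 to 167 ± 8.42 CPM, a log2 ratio of 0.56 (SE 0.097). Foxm1, for a factor of the cell division programme, rose from 10.1 ± 1.05 to 15.1 ± 1.69 CPM, a log2 ratio of 0.59 (SE 0.12). These 3 genes are also regulated by growth signals other than hedgehog. On the same strand, exons of Foxm1 overlap those of Tex52 over 144 bases and those of Gm44596 over 97. Of the 31-base words in the Ccnd1 transcript, 28.1% occur in other genes on either strand. Exons of Ccnd1 overlap those of LTO1 on the opposite strand over 1100 bases, and words in that stretch are counted in this share.

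Nkx2-2, which marks ventral progenitors exposed to Sonic hedgehog, had 6.63, 6.68 and 6.43 CPM in WT and 9.53, 10.1 and 9.81 CPM in Edf1 KO. The libraries of each genotype lay close together, and Nkx2-2 rose by a log2 ratio of 0.58 (SE 0.11, adjusted p 0.00208 by edgeR). Sfrp1, named after its values were seen, encodes a secreted Wnt inhibitor and was the fifth of the called targets, at 0.32 (SE 0.069). The ventral genes Nkx2-1 and Olig2 had log2 ratios of 0.50 and 0.099 and did not pass. Foxa2, Foxf2, Foxl1 and Nkx6-1 had at most 3 counts in any library, which is at or under the floor used here, and Foxf1 at most 4.

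Transduction genes between Smoothened and the Gli factors had a median log2 ratio of -0.070 over 25 tested genes, with 3 called higher and 5 lower. The largest fall was that of Tulp3, which carries receptors such as Gpr161 into the primary cilium. It went from 106.8 ± 3.02 to 80.3 ± 0.93 CPM, a log2 ratio of -0.41 (SE 0.053, adjusted p 0.000104 by edgeR). Stk36, the mouse counterpart of the fly Fused kinase and needed for motile cilia, fell from 69.0 ± 0.68 to 56.3 ± 3.33 CPM (-0.29, SE 0.060). Prkaca, a catalytic subunit of protein kinase A, which phosphorylates Gli factors, fell from 113 ± 2.49 to 97.5 ± 0.20 CPM (-0.22, SE 0.051).

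Kif3a, a subunit of the motor that builds cilia, had a log2 ratio of -0.17 (adjusted p 0.0422 by edgeR), and Inpp5e, a lipid phosphatase of the cilium, one of -0.21 (adjusted p 0.0496 by edgeR). Both calls were lost under several alternatives, Kif3a in every fit that left out a library except WT replicate 2 and with library size alone, at adjusted p of up to 0.186. Of the alternatives at this threshold, the Inpp5e call held only with limma voom and without WT replicate 2. Called higher were Evc, Kif7 and Mosmo, named after their values were seen. Evc, which acts with Smoothened at the ciliary base, had 35.0 ± 2.53 CPM in WT and 44.4 ± 1.69 CPM in Edf1 KO (0.34, SE 0.071, adjusted p 0.00357 by edgeR). Kif7, a kinesin of the cilium tip that organises Gli factors, was at 0.33 and its call was lost when WT replicate 1 (0.29) or knockout replicate 2 (0.35) or 3 (0.25) was left out. Mosmo, whose product lowers Smoothened at the membrane, was at 0.31 and its call was lost without WT replicate 1 (0.29) or any knockout library (0.28, 0.35 and 0.31 without replicates 1, 2 and 3).

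**Figure D3:**
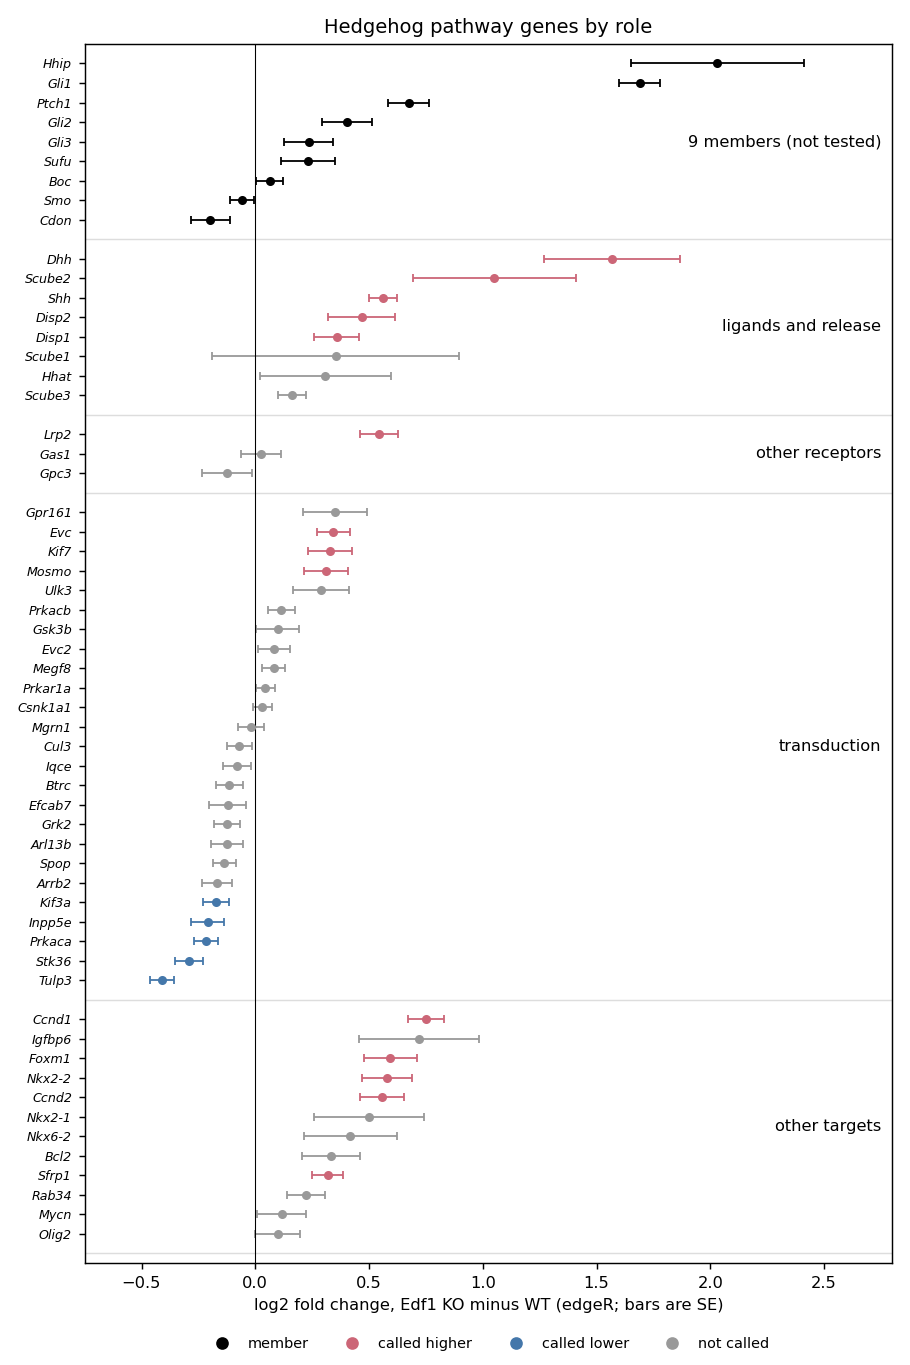
Log2 ratios (Edf1 KO minus WT, edgeR, bars are SE) of the 9 members, in black and given without a test, and of 48 of the 49 tested genes of the other hedgehog lists, with calls at an adjusted p of 0.05 in red (higher) and blue (lower). Calls shown among ligand, receptor and target genes are all higher, and the 5 lower calls are all among transduction genes.

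The genes whose levels followed Gli1 most closely were found from log2 CPM centred on each gene's mean over the 6 libraries, among 12881 genes with a mean log2 CPM of at least 1. The nearest was Kdr, which encodes a receptor for vascular endothelial growth factor, at a root mean square distance of 0.10 on the log2 scale. Kdr had 38.1 ± 3.16 CPM in WT and 127 ± 2.16 CPM in Edf1 KO. Next were Cthrc1, for a secreted protein of the matrix (0.14), and Eln, for elastin (0.14). Nearest to Ptch1 were Akap12 (0.041), a scaffold of protein kinase A, the Notch ligand gene Jag1 (0.046) and the adhesion receptor gene Adgrv1 (0.051). Jag1 went from 20.7 ± 3.30 to 32.6 ± 1.30 CPM. The 6 libraries are of 2 genotypes, so this distance takes in the difference between genotypes as well as the variation among replicates.

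Markers of other cells moved with the genotypes as well. Of 12 meningeal fibroblast markers, 11 were tested, 7 were called higher and 0 lower. Col1a1, Col3a1, Dcn and Zic1 were among the 7, and Slc6a13 had 0 to 6 counts. The 4 tested markers that were not called were Foxd1, Foxc1, Pdgfra and Aldh1a2, at log2 ratios of 0.65, 0.40, -0.091 and -0.25. Of 12 mural and endothelial markers, 5 were tested, 4 were called higher and Flt1 lower, and the summed level, mostly Acta2, was 556 to 587 CPM in WT and 751 to 800 CPM in Edf1 KO. Of the endothelial markers, Cldn5 had at most 1 count and Pecam1 had 2 to 5 in any library. Kdr, also an endothelial marker, had 38.1 ± 3.16 CPM in WT and 127 ± 2.16 CPM in Edf1 KO (SD, n = 3 each). Cdh5, another endothelial marker, had 2, 4 and 5 counts in WT replicates 1, 2 and 3 and 8, 26 and 13 counts in the knockout replicates, and did not pass the low-count filter.

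The summed pituitary markers were at 17.2 to 20.4 CPM in WT and 29.0 to 35.5 CPM in Edf1 KO, with Prl at 0 counts in every WT library and Fshb at 0 in all 6. Of their 9 genes 4 were tested, with 3 called higher and 1 lower. The gene called lower was Lhb, which made up most of the WT sum. It went from 14.7 ± 1.30 CPM in WT to 5.59 ± 0.53 CPM in Edf1 KO, so the higher sum does not hold for every gene. Cga had 1, 2 and 3 counts in WT replicates 1, 2 and 3. Prl and Cga passed the filter on low counts through the knockout libraries alone, so their higher calls are no support for a difference. The 10 microglia markers were all lower in value, 9 of them called, and the summed level was 1168 to 1206 CPM in WT and 797 to 838 CPM in Edf1 KO. Multiciliated cell markers summed to 3309 to 3440 CPM in WT and 2003 to 2172 CPM in Edf1 KO. The part of these cell types in the levels of Gli1, Hhip and Ptch1 was not tested.

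Other lists moved less. The 12 radial glia and astrocyte markers, the cells in which hedgehog signalling of the ventricular wall is best known, had 2 genes called higher and 2 lower. The higher calls were Nes and Fabp7, at log2 ratios of 0.40 and 0.20, and the lower calls Gfap and Aldoc, at -0.42 and -0.41. The summed level of the 12 markers, mostly Vim, was 10613 to 11159 CPM in WT and 11381 to 11807 CPM in Edf1 KO. These sums did not overlap between the genotypes. Of 7 tested oligodendrocyte lineage markers 1 was called higher and 1 lower, of 7 tested neuron markers 2 were called lower, and of 5 tested choroid plexus markers 1 was called higher and 1 lower. The summed levels of these 3 lists overlapped between the genotypes.

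**Figure D4:**
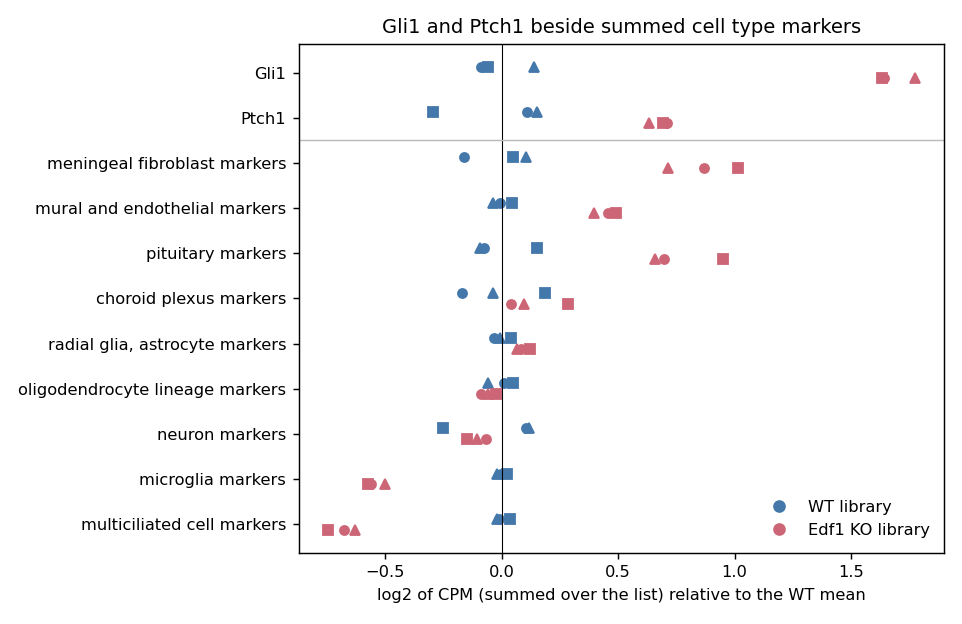
Gli1 and Ptch1 (top) and the summed CPM of 9 cell type marker lists, each as log2 relative to the WT mean, with 1 point per library (blue WT, red Edf1 KO; circle, square and triangle are replicates 1, 2 and 3). Fibroblast, mural and pituitary lists lie to the right in the knockout and microglia and multiciliated cell lists to the left, and Gli1 lies farther right than any list.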

How the data were processed

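RNA-seq of 6 libraries was used as 1 deposited table of counts per gene symbol, made by the authors and not normalized, since its values are whole numbers with unequal totals. The submitters' processing notes name FastQC 0.11.2, cutadapt 1.11, HISAT2 2.1.0 and the build GRCm38. Counting program, annotation and strand use are not given in the sources used here. The table has 0 rows without a gene name and 0 unused columns.

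Counts were analysed in R 4.3.3. Low genes were removed with filterByExpr of edgeR 4.0.16, libraries were scaled with TMM factors, and edgeR's quasi-likelihood test compared Edf1 KO with WT on all 6 libraries without covariates, with Benjamini-Hochberg adjustment over 14243 genes and a threshold of 0.05. Each SE was obtained from the log2 ratio and its F statistic (ratio over root F). Log2 CPM used a prior count of 2, and 3 counts served as the floor. Alternatives were DESeq2 1.42.0, voom of limma 3.58.1, the replicate block, leaving out each library, a threshold of 0.01, scaling by DESeq2 size factors or by library size alone, and filters of 1 count in all or of 50 counts on average. The fits were also run on simulated data with far fewer changed genes than were called here, and nothing is read from that run.

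Members and lists were chosen with earlier results of these data known. Genes named are the members, Edf1, the ligand genes, called genes of the other hedgehog lists (at most 8 highest and 8 lowest), and the 3 nearest patterns to Gli1 and to Ptch1. Any other was named after its values were seen. Positions, lengths and shared 31-base words come from GENCODE M21 and promoters from RefSeq. Results for 2 genes of the lists are not reported here, although the counts over the lists include them.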

Additional observations from a re-analysis of the deposited data

How the results depend on the processing

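All 9 members kept the sign of their log2 ratio in every alternative. Leaving out a library can hardly shift a log2 ratio by more than the spread between replicates. Nothing is therefore read from the fact that all 116 values lay within that spread of the reported value. Over the fits that left out a library, they ran from 1.64 to 1.77 for Gli1, 1.96 to 2.16 for Hhip, 0.55 to 0.75 for Ptch1, 0.33 to 0.47 for Gli2, 0.12 to 0.34 for Gli3, 0.11 to 0.35 for Sufu, 0.027 to 0.096 for Boc, -0.095 to -0.015 for Smo and -0.26 to -0.12 for Cdon. A mean of 50 counts removed Hhip, Dhh and Scube2. Edf1 stayed between -2.99 and -2.76.

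Of the other hedgehog genes, the threshold of 0.01 left 12 called, 9 higher and 3 lower, all 12 among the 20 reported. Library size alone also left 3 lower calls. Leaving out a library gave 13 to 24 calls, fewest without knockout replicate 2, with 10 to 18 higher and 3 to 6 lower. It gave 3 lower calls without any library except WT replicate 2. Over all genes the threshold of 0.01 left 2213 calls, 965 higher and 1248 lower. Leaving out a library gave 2644 to 4308 calls, with 1198 to 2051 higher, fewest without knockout replicate 1, and 1428 to 2257 lower.

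With the replicate block the count over all genes was 4065, and 21 other hedgehog genes were called. The correlations between deviations of same-numbered libraries were 0.069, 0.060 and 0.037. Whether same-numbered libraries share more than a number cannot be told from these values. The limits are the few counts of Hhip, Ihh and Scube2, the spread of 3 libraries a group, and levels of a mixed culture.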

Other observations

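The nearest tested gene on each side of every member was examined, a choice made after the data were seen. Of these 18 neighbours, 2 were called higher and 1 lower by edgeR's quasi-likelihood test, which is 16.7%, beside 26.9% of all tested genes. R3hdm2, next to Gli1, had 114.7 ± 2.08 CPM in WT and 169.6 ± 2.26 CPM in Edf1 KO (log2 ratio 0.56, SE 0.048, adjusted p 4.13e-06 by edgeR), which is less than the difference of Gli1 itself. Frem3, next to Hhip, had 0.190 ± 0.11 CPM in WT and 0.740 ± 0.22 CPM in Edf1 KO, a log2 ratio of 2.002 (SE 0.51). Its level was near that of Hhip, and it passed the filter on low counts through the knockout libraries alone, so its place among the 2 higher calls is no support for a difference. On the other side of Hhip, Anapc10 was at 0.036 and was not called. Ercc6l2, next to Ptch1, was lower in the knockout (80.2 ± 3.89 and 63.1 ± 1.25 CPM, -0.35), while Fancc on the other side was at 0.12 and was not called.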
